A study of Mus musculus with 8 samples.

Results

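The miR-322 and miR-503 cluster is a group of microRNA (miRNA) genes that lie within a few kilobases of each other on the X chromosome and are regarded as being transcribed together. It is represented here by 7 mature miRNA probe sets, chosen by their miRBase accessions, of 1908 mature probe sets and 3222 probe sets in all. The 7 are both arms of miR-322, the 5p arm of miR-503, the 5p arm of miR-351, both arms of miR-542 and the 5p arm of miR-450a. They were measured in hearts of male C57/BL6 mice, labelled 8 weeks old, taken 21 days after a coronary artery (the left anterior descending) had been tied off to cause a myocardial infarction (MI) or after sham surgery. Each group had 4 hearts with 1 Affymetrix miRNA array per heart. By their titles the sham hearts are 1 to 4 and those with MI are 1, 4, 5 and 7. Every title also holds the letters nc, whose meaning is not given. The labels name heart tissue and do not say whether scar or surviving muscle was taken. Since the table pairs no other accession with a miRNA name in the sources used here, the tissue could not be checked against miRNAs that define heart muscle, and the shares of muscle, scar, vessel and blood cells are unknown.

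A miRNA is a short RNA that guides an Argonaute protein to messenger RNAs and represses them, mainly through pairing of its seed, bases 2 to 8 from the 5′ end. Each hairpin precursor can give a mature strand from either arm, named 5p and 3p. miR-322 is the mouse counterpart of human miR-424, and together with miR-503 it is known for repressing drivers of the cell cycle such as cyclin D1 and Cdc25a, for promoting the exit of muscle precursors from the cell cycle, and for acting in endothelial cells during vessel growth and low oxygen. The question addressed here was whether the products of the cluster differ between infarcted and sham-operated hearts, and whether they vary together from heart to heart.

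The mature sequences are shown because they set which members can act on the same targets and how rich in A and U each probe target is. All 7 names matched the RefSeq table of mouse miRNAs (build GRCm38.p6), and every gene of the cluster lies on the minus strand. The 5p arm of miR-322 is at chrX:53054306-53054327 and its 3p arm at chrX:53054269-53054289. miR-503-5p is at chrX:53054027-53054049 and miR-351-5p at chrX:53053315-53053338. The 5p arm of miR-542 is at chrX:53049453-53049474 and its 3p arm at chrX:53049415-53049436. miR-450a-5p is encoded at chrX:53048339-53048360 (Mir450-2) and again at chrX:53048206-53048227 (Mir450-1). The sequences below run 5′ to 3′ with the seed in capitals.
miR-322-5p: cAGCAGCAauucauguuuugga
miR-503-5p: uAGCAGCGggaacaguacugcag
miR-351-5p: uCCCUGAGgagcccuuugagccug
miR-322-3p: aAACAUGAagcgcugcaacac
miR-542-5p: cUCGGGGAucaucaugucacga
miR-542-3p: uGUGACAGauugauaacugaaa
miR-450a-5p: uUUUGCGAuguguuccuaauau

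miR-322-5p and miR-503-5p share bases 2 to 7 (AGCAGC) and part only at the last base of the seed. Among 1679 mature names in RefSeq, 11 carry these bases (0.655%), among them miR-15a-5p, miR-15b-5p, miR-16-5p, miR-195a-5p and miR-497a-5p. The whole seed of miR-322-5p is carried by 10 names, whereas that of miR-503-5p is carried by 1, itself. The seed of miR-351-5p is shared with miR-125a-5p and miR-125b-5p and is carried by 5 names in all (0.298%). The other members stand nearly alone: the seed of miR-542-5p occurs in 2 names, and those of miR-322-3p, miR-542-3p and miR-450a-5p each in 1. The cluster yields 2 members of the miR-15/16 seed family, 1 of the miR-125 family and several products with seeds of their own. The share of G and C is 31.8% in both miR-542-3p and miR-450a-5p and between 40.9% (miR-322-5p) and 62.5% (miR-351-5p) in the other 5.

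The mature products fall into 2 stretches. The outermost mature bases of Mir322 and Mir503 are separated by 219 bases and those of Mir503 and Mir351 by 648 bases. A gap of 3801 bases then leads to Mir542, followed after 1054 bases by Mir450-2, after a further 76 by Mir450-1 and after 105 by Mir450b. RefSeq places Mir322, Mir503 and Mir351, but not the other genes, inside the long noncoding RNA gene C430049B03Rik. It lists 13 mature names for these 7 genes, from chrX:53048008-53054327. The 6 names that are not among the members (the 3p arms of miR-503 and miR-351, the 3p arms of both miR-450a hairpins, and both arms of miR-450b) were not analysed here, nor were the hairpin probe sets, because their accessions are not paired with names in the sources used here.

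None of the 7 members passed the test between MI and sham hearts (limma across all 1908 mature probe sets, Benjamini-Hochberg adjusted p from 0.625 to 0.972, threshold 0.05), and 1 of the 7 had an unadjusted p under 0.05. In the same comparison 10 of the 1908 were called (0.524%), all of them higher in MI hearts and 0 (0.0%) lower. With 7 members and a background of this size, a count of 0 says little on its own, so the values and their intervals are given for each member. The values are log2 intensities after RMA, a method that subtracts background, brings the arrays to a common distribution and merges the probes for each target into 1 value. A difference of 1 is therefore a 2-fold difference in intensity, and levels of different probe sets cannot be ranked against each other. In bulk heart tissue, fewer cells of a type and less RNA per cell cannot be told apart.

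By level the members were of 2 kinds. As a guide to background, 17 of the 22 spike-in controls had low signal throughout, with a highest value of 2.06 on any array. This criterion was chosen with the data known. The 5 members from miR-322, miR-503, miR-351 and the 5p arm of miR-542 exceeded it in all 8 hearts, as did 374 of the mature probe sets. miR-542-3p and miR-450a-5p lay below it in all 8 hearts.

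**Figure D1:**
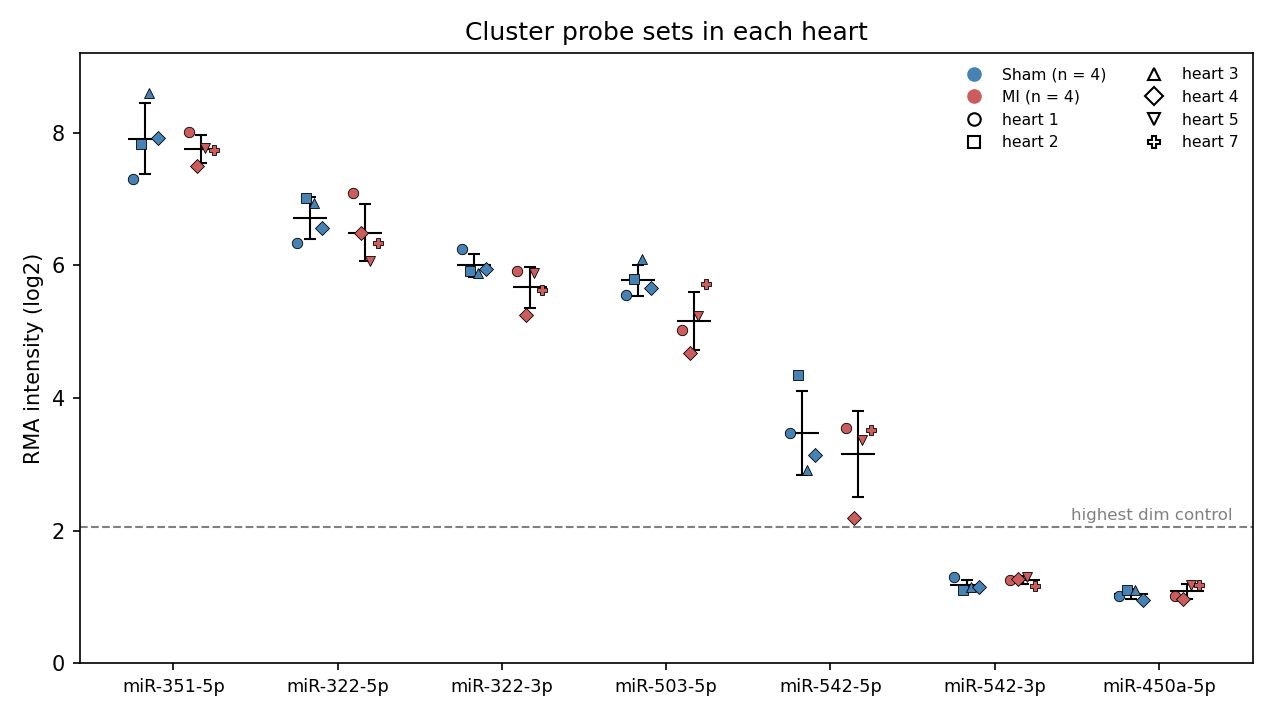
RMA intensity (log2) of the 7 cluster probe sets in each heart, blue for sham and red for MI, with the symbol giving the heart's number. Horizontal bars are group means and vertical bars 1 SD (n = 4 per group). The dashed line is the highest dim control, 2.06. The groups overlap in all 7 probe sets, and miR-542-3p and miR-450a-5p lie under the line in every heart. Heights of different probe sets do not rank their abundance.

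miR-503-5p (MIMAT0003188_st) had the largest difference of the cluster. It measured 5.55, 5.79, 6.09 and 5.66 in sham hearts 1 to 4, and 5.02, 4.68, 5.23 and 5.72 in MI hearts 1, 4, 5 and 7. MI hearts 1, 4 and 5 lay below every sham heart, while MI heart 7 lay among the sham hearts, so the groups overlapped. The means were 5.77 ± 0.234 (SD, n = 4) in sham and 5.16 ± 0.437 (SD, n = 4) in MI hearts. The difference of -0.61 log2 units (standard error 0.223, 95% interval -1.13 to -0.098) corresponds to 0.654 of the sham level and had an adjusted p of 0.625 in limma. Its unadjusted p was 0.0252 and depended on the fit. Over the 15 other fits the difference ran from -0.80 to -0.45. The lowest unadjusted p was 0.00296, without MI heart 7 (limma, adjusted p = 0.234). In 7 of the 15 the unadjusted p was 0.05 or more and the interval took in 0. These were the limma fits to the brightest 25%, after centring on them, with an intensity trend and robust prior, and without sham heart 2, sham heart 3, MI heart 1 or MI heart 4, with values from 0.0509 to 0.106. Lower means with an unadjusted p under 0.05 were found in 61 of 1908 mature probe sets (3.2%) and in 35 of the 374 above the dim controls (9.36%), and miR-503-5p was the only member among them, 1 of 7 and 1 of 5.

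miR-322-5p (MIMAT0000548_st), which shares most of its seed with miR-503-5p, had values that overlapped between the groups. It measured 6.34, 7.01, 6.94 and 6.56 in sham hearts 1 to 4, and 7.08, 6.49, 6.07 and 6.34 in MI hearts 1, 4, 5 and 7. The highest value of all was that of MI heart 1 and the lowest that of MI heart 5. The means were 6.71 ± 0.318 (SD, n = 4) for sham and 6.49 ± 0.430 (SD, n = 4) for MI hearts, and limma fitted a change of -0.22 (standard error 0.240, limma adjusted p = 0.933). Its 95% interval ran from -0.77 to 0.33, or from 0.586 to 1.26 times the sham level. The size rested on single hearts, with -0.41 without MI heart 1 and -0.075 without MI heart 5. With the replicate number as a block the difference was 0.34, but that fit compares only hearts 1 and 4 of each group. A p-value of this size does not show that the level was the same.

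miR-322-3p (MIMAT0000549_st), the strand from the opposite arm of the same hairpin, measured 6.25, 5.91, 5.89 and 5.95 in sham hearts 1 to 4. In MI hearts 1, 4, 5 and 7 it measured 5.92, 5.25, 5.88 and 5.62. MI hearts 4, 5 and 7 lay below every sham heart, and MI heart 1 lay among the sham hearts. Sham hearts averaged 6.00 ± 0.170 (SD, n = 4) and MI hearts 5.67 ± 0.306 (SD, n = 4), with a difference of -0.33 (standard error 0.165, 95% interval -0.71 to 0.048, limma adjusted p = 0.799).

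The arms of miR-322 did not differ detectably in their change. The log2 value of the 5p arm minus that of the 3p arm averaged 0.713 ± 0.471 (SD, n = 4) after sham surgery and 0.826 ± 0.482 (SD, n = 4) after infarction. It ran from 0.0884 to 1.10 in sham hearts and from 0.188 to 1.23 in MI hearts, so the spread within each group was several times the group difference of 0.113. Permuting the hearts over all 70 assignments (exact two-sided permutation test) gave p = 0.686, where the smallest possible p is 0.0286. The direction of this value was not settled, since leaving out 1 heart moved it to between -0.095 (without sham heart 1) and 0.33 (without MI heart 5), with -0.023 without MI heart 4.

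miR-351-5p (MIMAT0000609_st) carries the seed of the miR-125 family and lies next to miR-503 in the genome. It measured 7.30, 7.83, 8.60 and 7.91 in sham hearts 1 to 4 and 8.01, 7.49, 7.77 and 7.73 in MI hearts 1, 4, 5 and 7. The MI hearts all lay inside the range of the sham hearts. The means were 7.91 ± 0.532 (SD, n = 4) for sham and 7.75 ± 0.209 (SD, n = 4) for MI hearts, and limma fitted a change of -0.16 (standard error 0.255, 95% interval -0.75 to 0.43, limma adjusted p = 0.970). The direction rested on sham heart 3, without which the difference was 0.069. That heart also had the highest mean of the bacterial bioB and bioC hybridisation controls, 11.9 log2 units against 11.1 to 11.7 on the other arrays. After the group means were subtracted, miR-351-5p and these controls had r = 0.660 over the 8 hearts (exact permutation within groups p = 0.222, adjusted p = 0.556 over the 5 members above the dim controls) and rho = 0.595 (p = 0.233, adjusted p = 0.472), with r = 0.414 without sham hearts 3 and 2.

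miR-542-5p (MIMAT0003171_st) varied most between hearts among the members that could be measured. It measured 3.47, 4.35, 2.91 and 3.14 in sham hearts 1 to 4 and 3.55, 2.18, 3.37 and 3.51 in MI hearts 1, 4, 5 and 7. MI heart 4 stood apart, only just above the dim controls, and the other MI hearts lay among the sham hearts. Sham hearts averaged 3.47 ± 0.631 (SD, n = 4) and MI hearts 3.16 ± 0.652 (SD, n = 4), with a difference of -0.31 (standard error 0.397, 95% interval -1.23 to 0.60, limma adjusted p = 0.935). Without MI heart 4 the difference was 0.011. The correlation of miR-542-5p with the hybridisation controls was negative but did not pass the test after adjustment (r = -0.662, exact permutation within groups p = 0.0781, adjusted p = 0.391; rho = -0.690, p = 0.0451, adjusted p = 0.226), with r = -0.392 without sham hearts 3 and 2. For miR-322-5p, miR-322-3p and miR-503-5p the same r was -0.088, -0.295 and 0.189.

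The remaining members gave no usable level. miR-542-3p (MIMAT0003172_st), a strand known for repressing survivin in other settings, ranged from 1.11 to 1.30 in sham hearts and from 1.17 to 1.30 in MI hearts. miR-450a-5p (MIMAT0001546_st) ranged from 0.956 to 1.11 in sham hearts and from 0.968 to 1.19 in MI hearts, and it read exactly 1.112761 in both sham heart 2 and sham heart 3. Both stayed under the highest dim control in every heart, so no fold is given. Their fitted differences were 0.069 and 0.038 (limma adjusted p = 0.933 and 0.972). They are also the members with the lowest share of G and C in the sequences printed above, and whether that bears on their low signal was not tested. With its 3p arm at background, the arms of miR-542 were not compared.

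**Figure D2:**
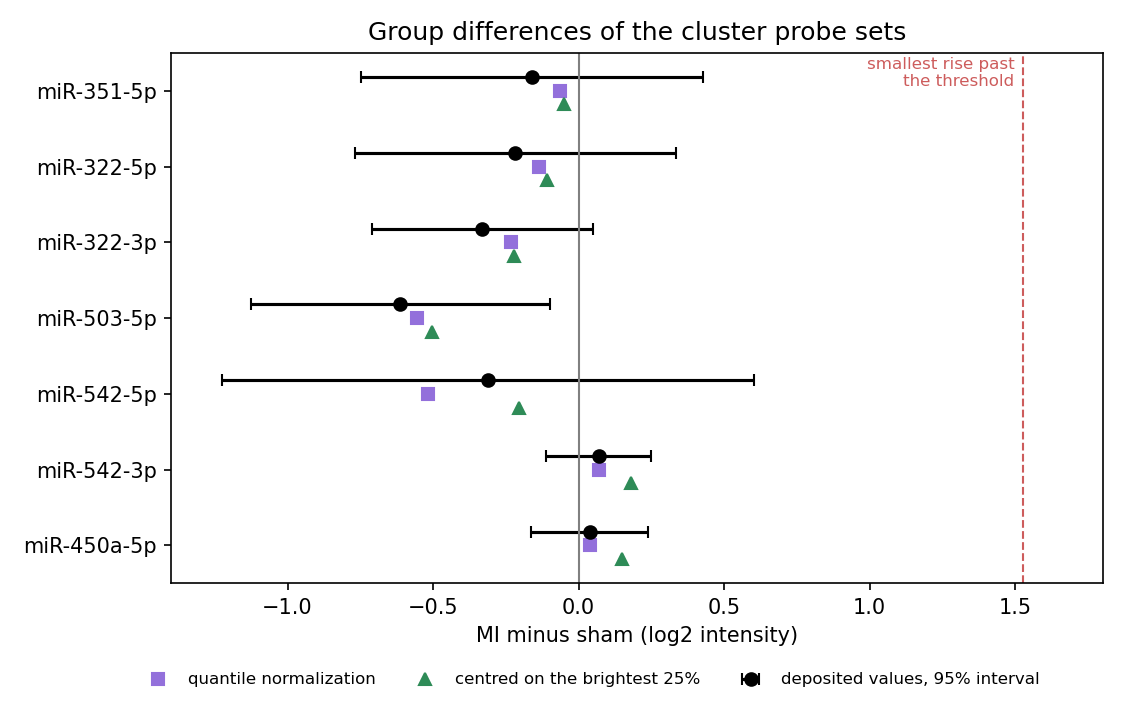
Difference between MI and sham hearts (log2 intensity) for the 7 cluster probe sets. Black points are limma fits of the deposited values with 95% intervals (4 hearts per group). Squares are the values after quantile normalization. Triangles are those after each array was centred on the median of the 25% of mature probe sets with the highest mean over all 8 arrays. All 7 intervals end left of the dashed line at 1.53. It marks the smallest rise that passed the threshold among mature probe sets and is not a detection limit. With the deposited values of all 8 hearts the interval of miR-503-5p alone leaves out 0.

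The intervals limit how large a rise could have gone unseen. The highest upper end among the 7 was 0.60, that of miR-542-5p, whereas the smallest rise called in these hearts was 1.53 log2 units. On the lower side the intervals reached -1.13 for miR-503-5p and -1.23 for miR-542-5p, so falls of 2.18-fold and 2.34-fold in intensity lie at their edge. For miR-542-3p and miR-450a-5p the interval bounds the change in background-level signal only. These intervals are not adjusted for the number of probe sets, and they move with the fit. Without MI heart 4 the difference of miR-542-5p was 0.011 (standard error 0.326). With the replicate number as a block that of miR-322-5p was 0.34 (standard error 0.290).

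All 5 members above the dim controls had a lower mean after infarction (by 0.16 to 0.61 log2 units) and a median difference of -0.31. Among the 374 mature probe sets above the dim controls, 218 (58.3%) also had a lower mean and the median difference was -0.095, with quartiles at -0.34 and 0.18. Of the 5 members, only miR-503-5p lay outside those quartiles, and 8.02% of the 374 had a lower difference than it. Scaling moved these values. Each array was centred on the median of the same brightest 25%, chosen by the mean over all arrays. The median of all mature probe sets then moved from -0.0039 to 0.11. Of the 374, 47.3% had a lower mean, and the 5 members ranged from -0.50 to -0.050. After quantile normalization the share was 57.2% and the members ranged from -0.55 to -0.065. Under it miR-542-5p moved from -0.31 to -0.52, while the other 4 moved towards 0. In none of the 7 members did all MI hearts lie on one side of all sham hearts, against 55 mature probe sets with every MI heart above (2.88%) and 24 with every MI heart below (1.26%).

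No pair of measured members had a correlation from heart to heart that passed the test. After the group means were subtracted, the 10 pairs among the 5 members had Pearson correlations over the 8 hearts from -0.121 to 0.559, with a median of 0.160 and 6 of 10 above 0. Over all pairs of the 374 probe sets above the dim controls the median was 0.0381, and the quartiles were -0.430 and 0.492. The closest pair was miR-322-3p with miR-542-5p (Pearson's r = 0.559, exact permutation within groups p = 0.123; Spearman's rho = 0.476, p = 0.233; adjusted p = 0.434 and 0.932 over 10 pairs), and r fell to 0.245 without sham heart 1 and MI heart 4. The next was miR-322-5p with miR-351-5p (r = 0.555, exact permutation p = 0.130, adjusted p = 0.434; rho = 0.286, p = 0.514, adjusted p = 0.932), with r = 0.691 without MI heart 1 and sham heart 2. miR-503-5p and miR-351-5p, which are neighbours in the genome, had r = 0.507 (exact permutation p = 0.115, adjusted p = 0.434) and rho = 0.524 (p = 0.212, adjusted p = 0.932), with r = 0.780 without MI hearts 7 and 4.

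The pairs that share a hairpin or a seed did not vary together detectably. For the arms of miR-322, r was -0.121 (exact permutation p = 0.809, adjusted p = 0.983) and rho -0.333 (p = 0.441, adjusted p = 0.932), with r = -0.732 without MI heart 1 and sham heart 2. For miR-322-5p with miR-503-5p, r was -0.0191 (exact permutation p = 0.983, adjusted p = 0.983) and rho -0.0476 (p = 0.962, adjusted p = 0.962), with r = 0.182 without the same hearts. Within the groups of 4 hearts the signs differed. For the arms of miR-322, r was -0.846 in sham and 0.175 in MI hearts, and for miR-322-5p with miR-503-5p 0.800 and -0.344. Among the other pairs, miR-322-3p with miR-351-5p had -0.821 and 0.912, whereas miR-503-5p with miR-351-5p had 0.947 and 0.284. A pooled value near 0 therefore does not show that 2 members were unrelated in each group, and this was not tested. All of these correlations share the arrays and their normalization.

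**Figure D3:**
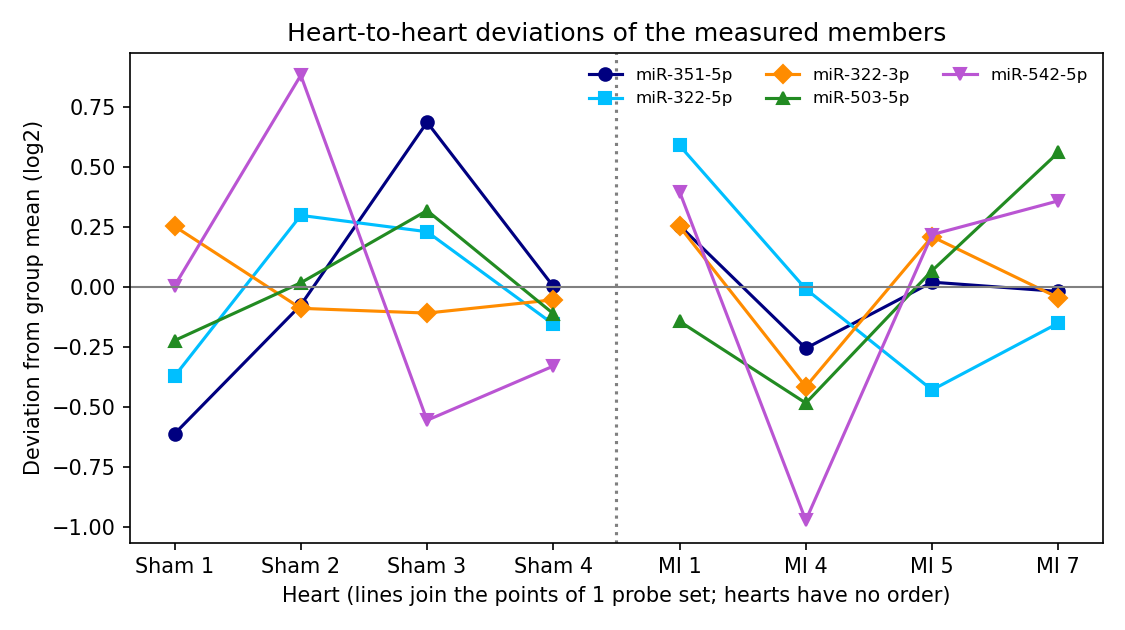
Deviation of each heart from the mean of its group (log2) for the 5 measured members, sham hearts left and MI hearts right of the dotted line. Lines join the points of 1 probe set and imply no order of hearts. MI heart 4 was the lowest MI heart in 4 of the 5, while sham heart 1 was the lowest sham heart in 3 and the highest in miR-322-3p.

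One infarcted heart was the lowest of its group in most of the measured members. MI heart 4 had the lowest value of its group in miR-322-3p, miR-503-5p, miR-351-5p and miR-542-5p, 4 of 5 members. It was the lowest MI heart in 35.3% of the 374 probe sets above the dim controls. Its deviation from the MI mean was -0.97 in miR-542-5p, where it lay only just above the dim controls. The deviation was -0.48 in miR-503-5p, -0.42 in miR-322-3p, -0.26 in miR-351-5p and -0.0089 in miR-322-5p. Its miR-351-5p value lay inside the sham range. The low mean of the members in this heart thus owes most to miR-542-5p. The mean of the 5 members was 5.22 in that heart and 5.92, 5.66 and 5.79 in MI hearts 1, 5 and 7, against 5.78, 6.18, 6.09 and 5.84 in sham hearts 1 to 4. That value averaged 5.97 ± 0.190 (SD, n = 4) over sham and 5.65 ± 0.303 (SD, n = 4) over MI hearts, with a difference of -0.33 that became -0.18 without MI heart 4. Without that heart the difference of miR-503-5p was -0.45 and that of miR-322-3p was -0.19 (limma adjusted p = 0.954 and 0.963). MI heart 1 was the opposite case, the highest MI heart in 4 of the 5 members, with miR-503-5p the exception, and it was the highest in 42.0% of the 374.

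Profiles like that of miR-322-5p were also sought outside the cluster. Among 472 other mature probe sets of the brightest 25%, the 5 with the highest Pearson correlation with it over the 8 hearts had r from 0.889 to 0.922, and from 0.876 to 0.930 after the group means were subtracted. The first of them, MIMAT0000138_st, had means of 13.5 in sham and 13.3 in MI hearts, a difference of -0.18. The next, MIMAT0014805_st, had means of 4.78 and 4.26, a difference of -0.52. None of the 5 passed the threshold (limma, lowest adjusted p = 0.882). Among the other 4 members above the dim controls the highest value on the same measure was 0.584, for miR-351-5p. As the 5 were the highest of 472 over 8 hearts and 0.584 the highest of 4, their sizes cannot be compared. These values are a description.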

How the data were processed

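The authors deposited log2 intensities made with RMA, per the submitters' processing notes. Neither the version and software nor detection calls are named there. RNA was tailed with poly(A) and carried a biotin label, per the labels' protocols. One table holds all 8 arrays, so the precision is limited by their number. Replicates are separate arrays whose handling is not described.

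The 1908 mature probe sets were fitted together, without a filter, by limma 3.58.1 under R 4.3.3 with the group as the only term (eBayes, two-sided), followed by Benjamini-Hochberg adjustment over all of them. The code of the fit was checked on simulated data with independent noise, and its recovery of small changes is not reported here. Correlations were tested by permuting hearts within groups (576 arrangements). The members, the lists and the dim controls (spike-in probe sets with a mean under 5) were chosen with earlier results of these data known. The rule for named probe sets took all members, the other products of the cluster, miRNAs of the same seeds and the 5 profiles most like miR-322-5p. Rows for other products, seed relatives and cell type markers could not be paired with names and were not analysed. At most 2 unnamed accessions are printed. Hearts 1 and 4 exist in each group. Their deviations from the group means correlated at -0.294 and -0.0446 between same-numbered hearts, so no pairing was assumed. The alternatives were 2 filters on dim probe sets, quantile normalization, centring, a variance trend with robust fitting, weights per array, a block for the replicate number and leaving out each heart.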

Additional observations from a re-analysis of the deposited data

Results flagged for a closer look

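In 2 of 16 groups of 4 values, a single heart lay apart from its group, where chance, at about 1 in 20, gives 0.8. miR-322-3p measured 6.25 in sham heart 1 against 5.89 to 5.95 in the other sham hearts, with 0.847 of the range taken by the gap. miR-542-5p measured 2.18 in MI heart 4 against 3.37 to 3.55 in the other MI hearts, with 0.869 of the range taken by the gap.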

How the results depend on the processing

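No member passed the threshold under any of the 15 other fits, and the lowest adjusted p of any member was 0.234, for miR-503-5p without MI heart 7. Leaving out each heart gave differences of -0.80 to -0.45 for miR-503-5p, -0.41 to -0.075 for miR-322-5p, -0.41 to -0.19 for miR-322-3p, -0.36 to 0.069 for miR-351-5p, -0.50 to 0.011 for miR-542-5p, 0.046 to 0.11 for miR-542-3p and 0.0051 to 0.079 for miR-450a-5p. The direction turned for miR-351-5p without sham heart 3 (0.069) and for miR-542-5p without MI heart 4 (0.011). The fit with the replicate number as a block leaves 1 residual degree of freedom, since 2 numbers are shared. Its difference rests on hearts 1 and 4 of each group alone. In that fit the direction turned for miR-322-5p (0.34) and miR-351-5p (0.14), while miR-503-5p was at -0.76 (limma adjusted p = 0.999). Without each heart, the miR-322 arm difference ran from -0.095 (without sham heart 1; -0.023 without MI heart 4) to 0.33 and the mean of 5 members from -0.42 to -0.18. The causes were not tested. The count of all mature probe sets past the threshold was 10, against 20 and 22 in the brightest 50% and 25%, 16 after quantile normalization (1 of them lower), 25 after centring, 18 with the trend, 17 with array weights, 0 with the block (76 at an unadjusted p under 0.05) and 7 to 17 without each heart, the highest without sham heart 3. miR-542-3p and miR-450a-5p drop out of both filtered fits. Planned comparisons of hairpin probe sets and of the miR-542 arms were not run. Low signal limits what can be said of miR-542 and miR-450a.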
